A study of Iris tectorum with 6 samples.

Results

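The transcripts described here are those annotated to the 26S proteasome, the protease that breaks down ubiquitin-tagged proteins, and to autophagy, which carries cytoplasm to the vacuole, in leaves of Iris tectorum, the roof iris. A unigene (an assembled transcript, either a contig of a numbered cluster of similar contigs or a lone sequence) was taken when its best protein hit contained the word proteasome or autophagy and came from Asparagus, Elaeis, Phoenix, Musa, Ananas, Dendrobium, Phalaenopsis or Iris. Of 111791 unigenes with reads, 199 were members, 134 of the proteasome and 65 of autophagy. A further 44 unigenes held either word but had hits in other genera. Members matched Asparagus most often (74), then Elaeis (53) and Phoenix (37), and none had a hit in Iris. The members fell into 85 clusters or lone unigenes. With letters for forms and homologs dropped, they held 41 distinct names, 31 of the proteasome and 10 of autophagy. Each such name is called a protein below, though it can pool several lettered forms. Several contigs thus usually stood for 1 protein and can share reads.

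All plants grew in swine wastewater in a glasshouse, flooded to 12.3 ± 0.8 cm on average, per the labels. One group grew alone (plant alone) and the other together with the green microalga Dictyosphaerium sp. (co-culture). No genotype, age or time of sampling is given in the labels. Leaf RNA was sequenced in 3 samples per group. Of plant alone, 2 libraries (numbered 2 and 3) were analysed here, and of co-culture all 3. The labels do not state whether each sample had its own culture vessel, and p-values then describe only the spread between the samples at hand, which may be technical.

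The proteasome is a barrel, the 20S core, built from rings of alpha and beta subunits. The alpha rings gate the entrance and 3 of the beta subunits cut proteins. A 19S cap binds ubiquitin chains, removes them and unfolds the substrate with a ring of ATPases. In autophagy, a kinase complex starts the process, lipid-binding proteins extend a membrane, and 2 conjugation systems attach the small ubiquitin-like protein ATG8 to that membrane, which closes around cargo and fuses with the vacuole. In plants both routes recycle amino acids, and autophagy is known to be induced by starvation and by low oxygen.

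Libraries held between 18616931 and 22975621 expected counts, the read numbers that RSEM assigns to a unigene, which need not be whole. Leaf markers were abundant, with 157 to 3562 CPM (counts scaled to the library total, here without TMM) for the small chain of RuBisCO and 1910 to 11067 for chlorophyll a-b binding proteins, and both were lowest in co-culture 3 and highest in co-culture 2. Unigenes with hits in green algal genera held 2762 and 3271 CPM in plant alone 2 and 3. They held 2061, 1981 and 2263 CPM in co-culture 1, 2 and 3, each below both plant alone libraries. The reason was not tested. None of these unigenes carried the word proteasome or autophagy. Libraries did not group by label over the members. Over the 184 members tested, rank correlations across unigenes were 0.957 to 0.962 among co-culture 1 and both plant alone libraries, and 0.920 between co-culture 2 and co-culture 3, whereas co-culture 2 and 3 correlated with the other 3 libraries at 0.812 to 0.891. Over all 69984 unigenes tested, co-culture 2 and 3 did not stand apart as a pair from co-culture 1. They correlated at 0.722, and co-culture 1 with them at 0.780 and 0.721. Co-culture 1 correlated with plant alone 2 and 3 at 0.816 and 0.791. Plant alone 2 and 3 were the closest pair, at 0.8335. Co-culture 2 and 3 correlated with the plant alone libraries at 0.647 to 0.700. Unigenes are not independent replicates, and these values are a description. Whether co-culture 1 carries the right label could not be checked, and every group difference below takes the labels as given. Results that rest on co-culture 2 and 3 are given library by library.

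No member of either route passed adjustment with edgeR, DESeq2 called 3 contigs of the proteasome, and the middle of each route lay near 0. Of the 199 members, 184 (122 proteasome, 62 autophagy) had enough counts to be tested and 15 did not. At an adjusted p of 0.05, edgeR's quasi-likelihood test with Benjamini-Hochberg adjustment called 0 members, as it called 0 (0.0%) of all 69984 unigenes tested, with a smallest adjusted p of 0.628. At an unadjusted p under 0.05 there were 6 members, 5 higher and 1 lower in co-culture, against 7.2% of all unigenes (2.75% higher and 4.45% lower). Among 122 proteasome members these were contigs of alpha type-1, non-ATPase regulatory subunits 3 and 8 and activator subunit 4, which were higher, and of assembly chaperone 2, which was lower. Among 62 autophagy members it was 1 contig of ATG11, which was higher, and 0 were lower. DESeq2 called 3 members, all of the proteasome, against 1.85% of all unigenes. In bulk leaf RNA, fewer cells of a type and less RNA per cell cannot be told apart.

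The median log2 fold change of co-culture over plant alone was -0.05 for the proteasome (55 positive, 67 negative) and 0.11 for autophagy (34 positive, 28 negative), beside 0.00 for all unigenes tested. Fold changes stayed within 2-fold in either direction for 82.8% of proteasome members and 82.3% of autophagy members, and for 66.5% of all unigenes. Members were more abundant than most unigenes, with a median of 16 CPM for the proteasome and 9.81 for autophagy against 2.63 for all. Every co-culture library stood above every plant alone library for 14 proteasome members (11.5%) and 12 autophagy members (19.4%), where 12.8% of all unigenes did. They stood below for 18 (14.8%) and 9 (14.5%), against 17.2% of all unigenes. The difference of these shares from the background was not tested.

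**Figure D1:**
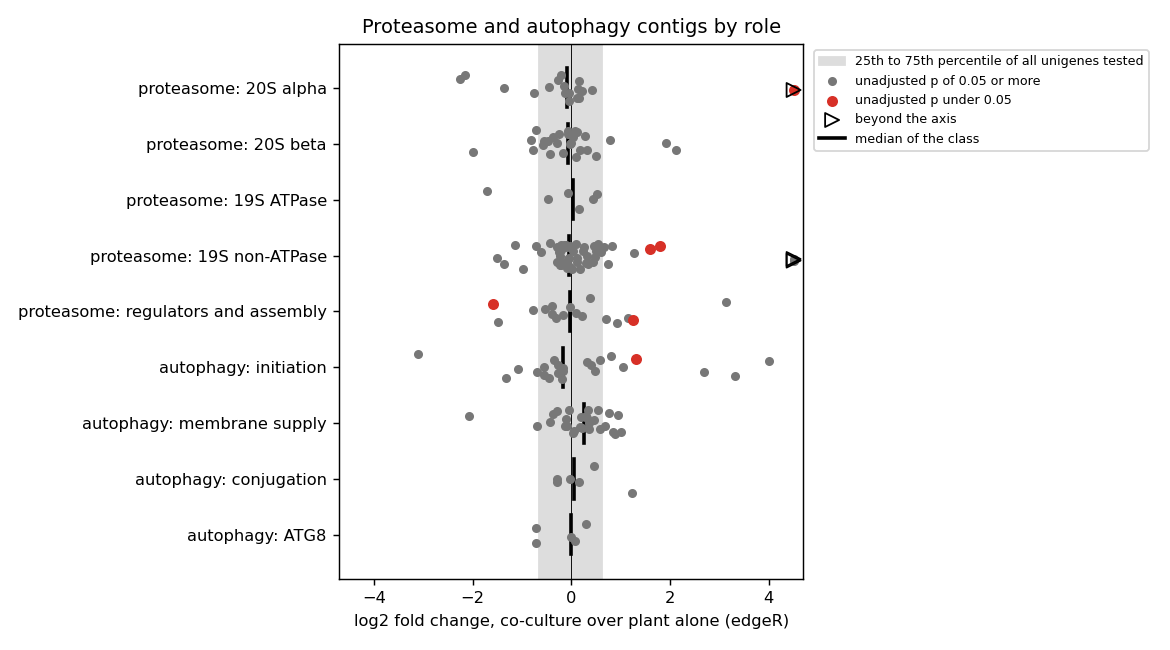
Log2 fold change of co-culture over plant alone for each of the 184 members tested (points; red where the unadjusted edgeR p was under 0.05), by role, with the median of each role as a bar and the 25th to 75th percentile of all 69984 unigenes as a grey band. Most points lie inside or near the band, and triangles mark 3 contigs beyond the axis.

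Summed over its members, the proteasome took 2472 and 3309 TMM-scaled CPM in plant alone 2 and 3, and 2837, 2923 and 2523 in co-culture 1, 2 and 3. Autophagy took 656 and 816 CPM in plant alone and 717, 871 and 857 in co-culture. The proteasome total ranged more widely between the plant alone libraries than between the groups, whose totals overlapped for both routes. The ratio of proteasome to autophagy CPM was 3.77 and 4.05 in plant alone, and 3.96, 3.35 and 2.94 in co-culture 1, 2 and 3. On the FPKM scale, which is per length, the same ratio was 4.57 and 4.63, then 4.76, 4.13 and 3.58. It was lowest in co-culture 2 and 3 on both scales, while co-culture 1 lay within or above the plant alone values.

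Because contigs of 1 protein can share reads, members were also summed per named protein, a choice made after seeing the data. Of 41 sums, 0 had an unadjusted edgeR p under 0.05, where 7.21% of all features in that fit did, and 0 passed at an adjusted p of 0.05. DESeq2 gave 1 sum an unadjusted p under 0.05, where 12.2% of all unigenes had one in the fit of single contigs. It gave 0 sums an adjusted p under 0.05, against 1.83% of all features. Log2 fold changes ran from -0.59 to 2.97, and 20 were positive and 21 negative. Of the 41 sums, 2 lay above and 3 below plant alone in every co-culture library, against 12.8% and 17.3% of all features.

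**Figure D2:**
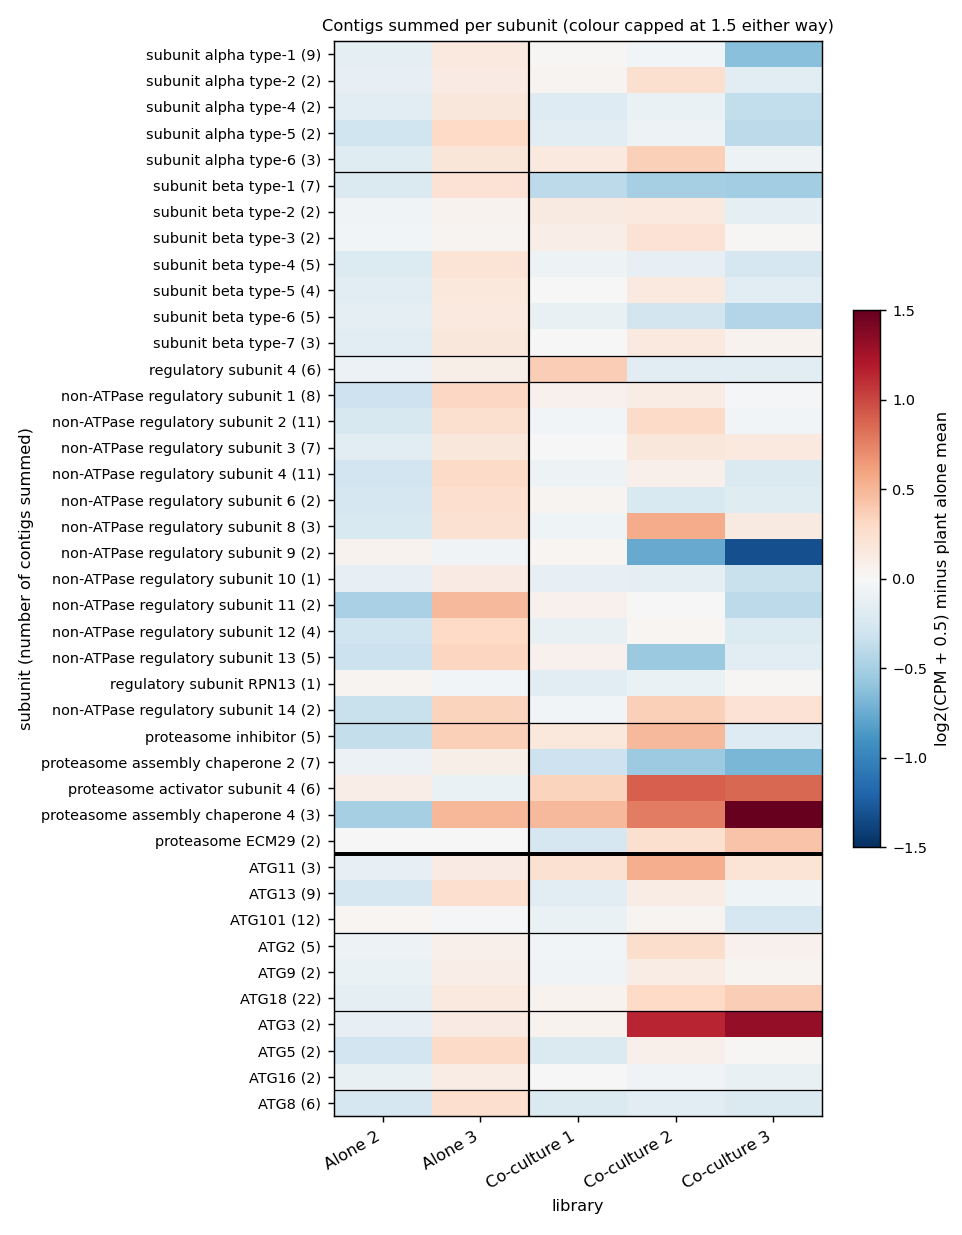
Level of each of the 41 proteins, summed over its contigs, in each library as log2(CPM + 0.5) minus the mean of plant alone 2 and 3, with thin lines between roles, a thick line between the proteasome (above) and autophagy (below), and the number of contigs in parentheses. Most proteins are pale in all 5 libraries; the darkest cells are ATG3, proteasome activator subunit 4 and assembly chaperone 4 on the high side and non-ATPase regulatory subunit 9 on the low side, in co-culture 2 or 3.

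The alpha rings of the 20S core were represented by 18 contigs of 5 subunits. Their sums reached mean levels of 72.4 to 117 FPKM over the 5 libraries, and their log2 fold changes ran from -0.24 to 0.14. The most abundant contig, CL4596.Contig2_zju (alpha type-4), held 67.6 and 92.1 CPM in plant alone 2 and 3 and 75.9, 82.4 and 71.9 in co-culture 1, 2 and 3. The co-culture values all lay inside the plant alone range. Its log2 fold change was -0.06 ± 0.28 (SE; edgeR adjusted p = 0.969).

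A minor contig of alpha type-1, CL26.Contig6_zju, was the member with the smallest edgeR p. It had no counts in plant alone 2 and 3 and held 1.77, 2.24 and 1.95 CPM in co-culture 1, 2 and 3. Against 3 counts over the plant alone libraries, the level was at least 24.2-fold higher (edgeR adjusted p = 0.628; DESeq2 adjusted p = 0.000554). The other contigs of cluster CL26 did not follow it. CL26.Contig1_zju held 18.5 and 19.4 CPM in plant alone and 17.8, 2.08 and 2.21 in co-culture. CL26.Contig8_zju held 25.8 and 22.2, then 26.9, 49.1 and 19.7. The whole cluster, 8 contigs all annotated as alpha type-1, summed to 99.2 and 122 CPM in plant alone and 109, 109 and 69.7 in co-culture. Its log2 fold change was -0.20. The cluster sum thus went against its contig.

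The beta rings were represented by 28 contigs of 7 subunits, with sums of 59.0 to 98.1 FPKM. In the naming used by protein databases, types 5, 6 and 7 carry the cutting sites. Beta type-5 held 99.9 and 125 CPM in plant alone and 113, 124 and 99.3 in co-culture (log2 fold change -0.01, 95% interval -0.72 to 0.71). Beta type-6 held 136 and 166 CPM, then 139, 124 and 110, and its groups overlapped (log2 fold change -0.28, 95% interval -0.996 to 0.44). Beta type-7 held 67.2 and 85.5 CPM, then 76.1, 83.7 and 78.3 (log2 fold change 0.06, 95% interval -0.62 to 0.73). No difference was detectable for the 3 cutting subunits, and the intervals leave room for changes of up to about 1 log2 unit.

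Beta type-1, which has no cutting site of its own in this naming, was the core subunit with the widest difference. Its 7 contigs summed to 100 and 136 CPM in plant alone and 88.9, 82.7 and 81.0 in co-culture. All 3 co-culture libraries lay below both plant alone libraries, by a log2 fold change of -0.49 ± 0.28 (edgeR adjusted p = 0.663). Its contig CL7560.Contig2_zju held 36.5 and 38.1 CPM, then 27.3, 16.4 and 21.5 (-0.78 ± 0.32, edgeR adjusted p = 0.628). A lone unigene of the same subunit, Unigene61112_zju, held 22.6 and 41.3 CPM and then 21.7, 16.5 and 20.4 (-0.71 ± 0.37, edgeR adjusted p = 0.642). None of these values passed the unadjusted threshold.

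The only ATPase of the 19S cap that the search words found was regulatory subunit 4 (RPT2 in yeast naming), which helps to open the core gate, with 6 contigs. Its most abundant contig, Unigene6450_zju, held 55.8 and 102 CPM in plant alone and 120, 112 and 106 in co-culture. Co-culture lay above both plant alone libraries but close to plant alone 3 (0.51 ± 0.36, edgeR adjusted p = 0.72). The sum of the 6 contigs was 153 and 174 CPM, then 210, 145 and 145, with co-culture 1 highest and co-culture 2 and 3 lowest (log2 fold change 0.03). This order can depend on which contigs the words and genera admitted. The sum leaves out contigs of cluster CL4174 that were not members. The largest of them, CL4174.Contig2_zju, held 66.8 and 62.2 CPM in plant alone, then 77.5, 120 and 113 in co-culture.

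The non-ATPase part of the cap held the largest share of members, 59 contigs of 13 proteins. Non-ATPase regulatory subunit 4 (RPN10), a ubiquitin receptor, had the highest summed level of all proteasome proteins, 166 ± 20.5 FPKM (SD over 5 libraries). It held 235 and 351 CPM in plant alone and 273, 303 and 246 in co-culture, all inside the plant alone range. RPN13, also a ubiquitin receptor, was far lower at 9.76 FPKM and held 15.2 and 14.4 CPM and then 13.2, 13.8 and 14.9. Non-ATPase regulatory subunit 14 (RPN11), which removes ubiquitin chains, held 64.4 and 103 CPM, then 79.1, 105 and 95. Non-ATPase regulatory subunit 2 (RPN1), a scaffold of the cap base, held 160 and 223 CPM, then 183, 230 and 184, and its most abundant contig Unigene1529_zju 73.8 and 111, then 74.3, 106 and 55.8. The groups overlapped for each of these, and the log2 fold changes of the 4 sums lay between -0.10 and 0.15.

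The single contigs of the cap named next were picked for their differences, and they differed more than their clusters. Of the 54 non-ATPase contigs tested, 85.2% stayed within 2-fold in either direction, against 66.5% of all unigenes. CL12404.Contig1_zju, of non-ATPase regulatory subunit 8 (RPN12), held 1.13 and 1.17 CPM in plant alone and 2.14, 4.12 and 4.24 in co-culture. It was higher in every co-culture library (1.60 ± 0.59, edgeR adjusted p = 0.628), while its cluster changed by 0.23. CL2991.Contig5_zju, of non-ATPase regulatory subunit 3 (RPN3) and named after its values were seen, held 0.37 and 0.42 CPM, then 1.354, 1.55 and 1.201 (1.80 ± 0.60, edgeR adjusted p = 0.628), and its cluster changed by 0.27. CL302.Contig5_zju, of non-ATPase regulatory subunit 2, held 4.32 and 1.92 CPM, then 6.10, 8.11 and 8.34 (1.27 ± 0.54, edgeR adjusted p = 0.628). At these levels the contigs are a small share of their proteins.

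Non-ATPase regulatory subunits 9 and 10 are named with the cap but are known from yeast and human cells as chaperones that help to assemble its base. The 2 contigs of subunit 9 summed to 29.7 and 27.6 CPM in plant alone and 29.3, 16.8 and 11.2 in co-culture. Co-culture 1 was level with plant alone, and co-culture 2 and 3 were lower. The log2 fold change was -0.59 ± 0.47 (edgeR adjusted p = 0.756), and -1.013 without co-culture 1 (edgeR adjusted p = 0.513). Subunit 10, a single unigene, held 45.6 and 53.9 CPM, then 45.6, 44.7 and 39.2, just below plant alone in each co-culture library (-0.21 ± 0.25, edgeR adjusted p = 0.853).

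Among the regulators, proteasome activator subunit 4 (PA200), a large protein that caps the core in place of the 19S particle, was higher in co-culture without passing adjustment. Its 6 contigs summed to 41.6 and 36.1 CPM in plant alone and 49.2, 72.9 and 71.1 in co-culture. All co-culture libraries lay above both plant alone libraries, co-culture 1 least. The log2 fold change was 0.73 ± 0.31 (95% interval -0.06 to 1.51; edgeR adjusted p = 0.627; DESeq2 adjusted p = 0.384). It was the only sum with an unadjusted DESeq2 p under 0.05, where 12.2% of all unigenes had one in the fit of single contigs. The log2 fold change was 0.92 without co-culture 1, where the unadjusted edgeR p was under 0.05 (edgeR adjusted p = 0.492). About 10% of all unigenes had such a p in the fit of single contigs without that library. The log2 fold change of PA200 was between 0.66 and 0.82 without any other library in turn.

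The 3 most abundant contigs of PA200 pointed the same way. CL13334.Contig2_zju held 9.44 and 11.7 CPM in plant alone and 16.4, 31.0 and 28.4 in co-culture (1.25 ± 0.40, edgeR adjusted p = 0.628). CL9699.Contig1_zju held 26 and 20.3 CPM, then 26.2, 31.7 and 32.7, and CL9699.Contig2_zju 4.76 and 3.39, then 5.31, 7.32 and 7.31. For each of the 3 contigs every co-culture library was above plant alone, for CL9699.Contig1_zju by a narrow margin in co-culture 1. Summed over all contigs of a cluster, CL13334 was the only cluster with members that had an unadjusted edgeR p under 0.05 (log2 fold change 1.29, edgeR adjusted p = 0.507), where 9.43% of all clusters and lone unigenes did.

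The 2 chaperones of alpha ring assembly went in opposite directions and differed in depth. Assembly chaperone 2 summed to 31.1 and 35 CPM in plant alone and 26.6, 22.4 and 20.3 in co-culture, with all co-culture libraries below (-0.52 ± 0.27, edgeR adjusted p = 0.648). Its contig CL5716.Contig3_zju, the only member with an unadjusted p under 0.05 that was lower in co-culture, held 8.11 and 5.98 CPM, then 3.03, 1.75 and 2.26 (-1.58 ± 0.47, edgeR adjusted p = 0.628). Assembly chaperone 4 held 0.06 and 0.62 CPM, then 0.61, 0.85 and 6.59. Its log2 fold change of 2.97 ± 1.65 (edgeR adjusted p = 0.657) rested on single libraries. It was 1.13 without co-culture 3, the library with the highest level. Leaving out a plant-alone library gave 2.06 (replicate 2) and 5.59 (replicate 3).

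The proteasome inhibitor (PI31), known in animals to bind the 20S core, held 41.0 and 67.4 CPM in plant alone and 59.0, 73.8 and 46.0 in co-culture, and its most abundant contig CL6594.Contig1_zju 24.0 and 48.4, then 43.1, 44.1 and 29.0. ECM29, known in yeast to tether the cap to the core, held 29.7 and 29.6 CPM, then 24.9, 35.2 and 40.1. The groups overlapped for both, with log2 fold changes of 0.14 and 0.17 for the sums.

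For autophagy, the initiation complex was represented by 24 contigs of 3 proteins, ATG11, ATG13 and ATG101, which bind or regulate the ATG1 kinase. ATG11 summed to 35.1 and 41.7 CPM in plant alone and 44.8, 56.0 and 44.1 in co-culture. It was higher in each co-culture library, closest to plant alone 3 in co-culture 1 and 3 (0.33 ± 0.27, edgeR adjusted p = 0.766). Of its contigs, CL11315.Contig2_zju held 5.67 and 6.31 CPM, then 15, 18.0 and 11.3 (1.30 ± 0.37, edgeR adjusted p = 0.628). The groups did not overlap in the libraries analysed here. The authors' log2 ratio of pooled counts, whose plant alone pool includes reads not analysed here, was smaller at 0.67. Whether the gap holds with plant alone replicate 1 was not tested. CL11315.Contig1_zju held 19 and 22.9 CPM, then 13.4, 15.9 and 19.96, with a log2 fold change of -0.35. Contigs of 1 cluster thus pointed both ways.

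ATG13 and ATG101 overlapped between the groups. ATG13 summed to 68.0 and 96.0 CPM in plant alone and 72.0, 87.3 and 77.5 in co-culture (-0.05), and its leading contig CL4728.Contig1_zju held 36.2 and 56.6, then 38.1, 42.7 and 40.8. ATG101 summed to 37.2 and 35.6 CPM, then 33.8, 37.6 and 30.4 (-0.10) over 12 contigs. Within ATG101, CL5516.Contig7_zju held 1.43 and 0 CPM, then 6.07, 8.33 and 6.85, whereas Unigene60196_zju held 5.41 and 4.73, then 1.76, 0 and 0, and Unigene60193_zju 11.1 and 18.5, then 9.87, 8.25 and 9.38. These contigs pointed in opposite directions, and none had an unadjusted edgeR p under 0.05.

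Membrane supply was represented by ATG2, which transfers lipids, ATG9, a membrane protein carried on vesicles, and ATG18, which binds a phosphoinositide lipid. ATG18 had the most contigs of the autophagy proteins, 22, and a level of 147 FPKM, against 11.7 FPKM for ATG2 and 5.85 for ATG9. The ATG18 sum pools contigs annotated as the forms a, b, c, f and h, whereas ATG2 and ATG9 had no lettered forms. ATG18 summed to 253 and 308 CPM in plant alone and 290, 343 and 361 in co-culture (0.24 ± 0.31, edgeR adjusted p = 0.859). Co-culture 2 and 3 lay above both plant alone libraries and co-culture 1 between them. Its leading contig Unigene5478_zju held 30.5 and 41.5 CPM, then 33.7, 50.2 and 42.1.

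In cluster CL1190, annotated as forms of ATG18, 3 of 10 contigs did not overlap between the groups, 2 higher and 1 lower in co-culture. Among all unigenes tested, 12.8% lay above and 17.2% below plant alone in every co-culture library, so this count is near the background. CL1190.Contig3_zju held 10.54 and 9.91 CPM in plant alone and 14.9, 14.9 and 22.0 in co-culture (0.75 ± 0.34, edgeR adjusted p = 0.628). CL1190.Contig6_zju held 5.39 and 9.86 CPM, then 11.9, 14.5 and 19.6 (1.007 ± 0.45, edgeR adjusted p = 0.628). Both were higher in all co-culture libraries. CL1190.Contig1_zju went the other way, with 11.8 and 7.70 CPM, then 6.72, 3.94 and 7.44 (-0.69 ± 0.46), and the cluster sum changed by 0.29. ATG2 (56.5 and 62.3 CPM, then 57.8, 71.5 and 62.1) and ATG9 (18.9 and 21.6, then 19.4, 21.9 and 20.8) overlapped between the groups.

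The conjugation system was represented by ATG3, the enzyme that passes ATG8 to its lipid, and by ATG5 and ATG16, parts of the complex that directs this step. ATG3 had the widest difference of any autophagy protein. It summed to 39.6 and 46.7 CPM in plant alone and 44.8, 95.5 and 108 in co-culture. Co-culture 1 lay between the plant alone libraries, and co-culture 2 and 3 were at more than double that level. The log2 fold change was 0.94 ± 0.46 (95% interval -0.23 to 2.11; edgeR adjusted p = 0.631). Without co-culture 1 it was 1.27, with an unadjusted edgeR p under 0.05 (edgeR adjusted p = 0.386). About 10% of all unigenes had such a p in the fit of single contigs without that library. Without co-culture 3 the log2 fold change of ATG3 was 0.75 (edgeR adjusted p = 0.670).

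The difference in ATG3 came from 1 unigene. Unigene5123_zju held 27.4 and 32.8 CPM, then 32.6, 84.9 and 92.5 (1.22 ± 0.53, edgeR adjusted p = 0.628), while the other ATG3 contig, CL4800.Contig2_zju, held 12.3 and 14, then 12.2, 10.6 and 15.7. ATG5 (12.5 and 18.9 CPM, then 13.2, 16.3 and 15.5) and ATG16 (22.0 and 25.6, then 23.8, 22.9 and 21.9) overlapped between the groups, with log2 fold changes of -0.07 and -0.06. The RuBisCO small chain held 1142 and 494 unscaled CPM in plant alone and 1442, 3562 and 157 in co-culture 1, 2 and 3, and its part in the ATG3 values was not tested.

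**Figure D3:**
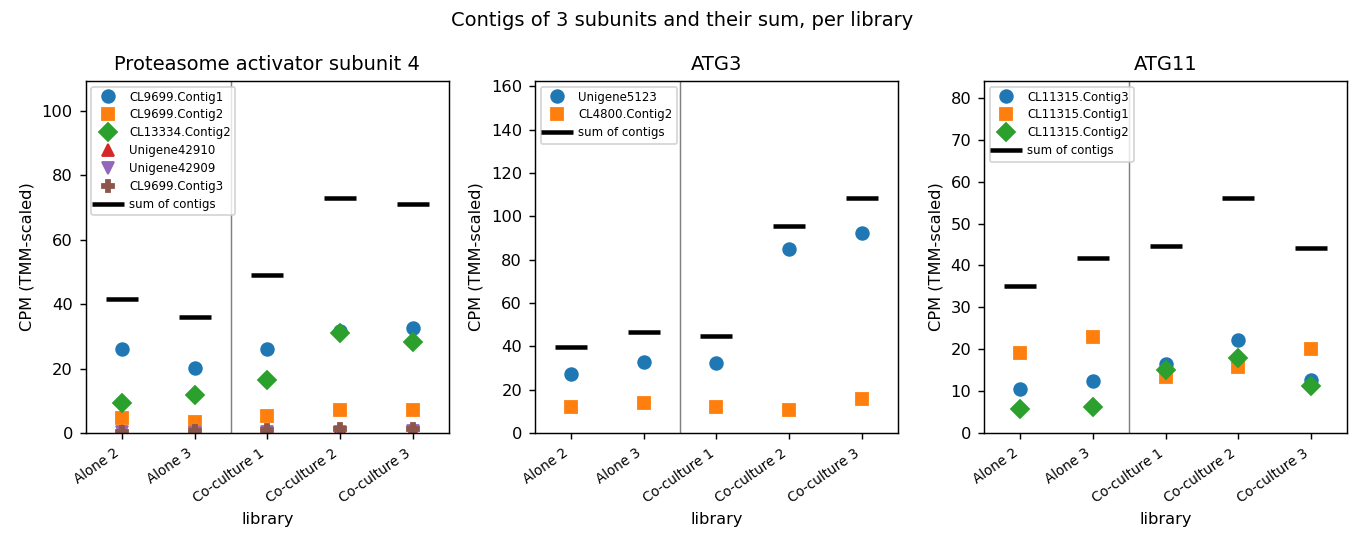
CPM (TMM-scaled) of every contig (coloured symbols) of PA200, ATG3 and ATG11, and their sum (black bars), in each library, with a line between plant alone and co-culture. For ATG3 the co-culture 1 sum of 44.8 lies with plant alone while co-culture 2 and 3 stand at 95.5 and 108, whereas all 3 co-culture sums of PA200 are above plant alone.

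ATG8, the protein attached to the autophagosome membrane, had 6 contigs and the highest level per length of the autophagy proteins, 154 ± 22.6 FPKM (SD over 5 libraries). It summed to 113 and 160 CPM in plant alone and 116, 120 and 116 in co-culture. The co-culture values all lay near plant alone 2 and inside the plant alone range (-0.22 ± 0.29, edgeR adjusted p = 0.864). The most abundant contig, Unigene40559_zju, held 49.5 and 84.8 CPM, then 45.1, 45.4 and 31.5, below plant alone in each co-culture library (-0.72 ± 0.36, edgeR adjusted p = 0.634). Unigene28288_zju held 21.0 and 31.3 CPM, then 29.4, 24.7 and 23.5, and showed no such difference. ATG4, the protease that processes ATG8, was not among the members.

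A contig could be absent from some libraries and well covered in others. Of the 184 members that reached 1 CPM in some library, 19 (10.3%) had no counts in at least 1 library and at least 1 CPM in all the others, against 8.42% of all unigenes that reached 1 CPM. The most frequent pattern among members was absence from co-culture 2 and 3 together, in 5 members (2.72%), against 0.512% of all unigenes. These 5 were contigs of regulatory subunit 4, ATG101 and ATG18, and 2 of alpha type-1, both of cluster CL26. The pattern was picked after the counts were seen, and members were more abundant than most unigenes. The difference between the shares was not tested. The reverse, absence from both plant alone libraries and from co-culture 1, held for 2 members, or 1.09% against 0.832% of all.

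Those 2 members were the other DESeq2 calls, both contigs of RPN10. CL2746.Contig1_zju held 14.8 and 21.2 CPM in co-culture 2 and 3 and had no counts in co-culture 1 or either plant alone library. CL2746.Contig2_zju was likewise absent from those 3 libraries and held 17.3 and 15.2 CPM in the others. Against 3 counts over plant alone, the co-culture means were at least 146-fold and 132-fold higher (DESeq2 adjusted p = 0.0450 and DESeq2 adjusted p = 0.0488; edgeR adjusted p = 0.628 for both), though co-culture 1 did not differ from plant alone.

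Another contig of the cluster ran the other way. CL2746.Contig4_zju made up 85.0%, 84.1% and 81.7% of the cluster's CPM in both plant alone libraries and co-culture 1, in that order, but 21.5% and 7.08% in co-culture 2 and 3. The cluster as a whole held 34.4 and 60.1 CPM in plant alone and 41.5, 44.5 and 42.6 in co-culture (log2 fold change -0.13). All co-culture sums lay inside the plant alone range, while the contig that carried most counts differed between libraries.

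Contigs that were absent from some libraries were also seen in 3 other clusters, picked after their values were seen. CL4174.Contig6_zju (regulatory subunit 4) held 39.5 and 40.6 CPM in plant alone, 36.5 in co-culture 1 and 0 in co-culture 2 and 3, where CL4174.Contig2_zju, which has no product name, went from 66.8, 62.2 and 77.5 to 120 and 113. CL4174.Contig2_zju was the largest contig in all 5 libraries, and the cluster sum changed by 0.13. In CL7077 (ATG8C), CL7077.Contig2_zju was found only in co-culture 3, at 26.3 CPM, the library in which CL7077.Contig4_zju was at 0, against 9.94 to 15.97 CPM in the others. That cluster was not level: it summed to 13.9 and 23.0 CPM in plant alone and 14.1, 18.7 and 44.9 in co-culture, highest in co-culture 3 (log2 fold change 0.50). In CL6594, CL6594.Contig3_zju of the proteasome inhibitor went from 0 and 1.89 CPM in plant alone to 3.07, 15.3 and 6.70 in co-culture, while CL6594.Contig1_zju remained the largest contig in all 5 libraries. Whether contigs of 1 cluster are separate genes, alleles or isoforms was not tested.

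**Figure D4:**
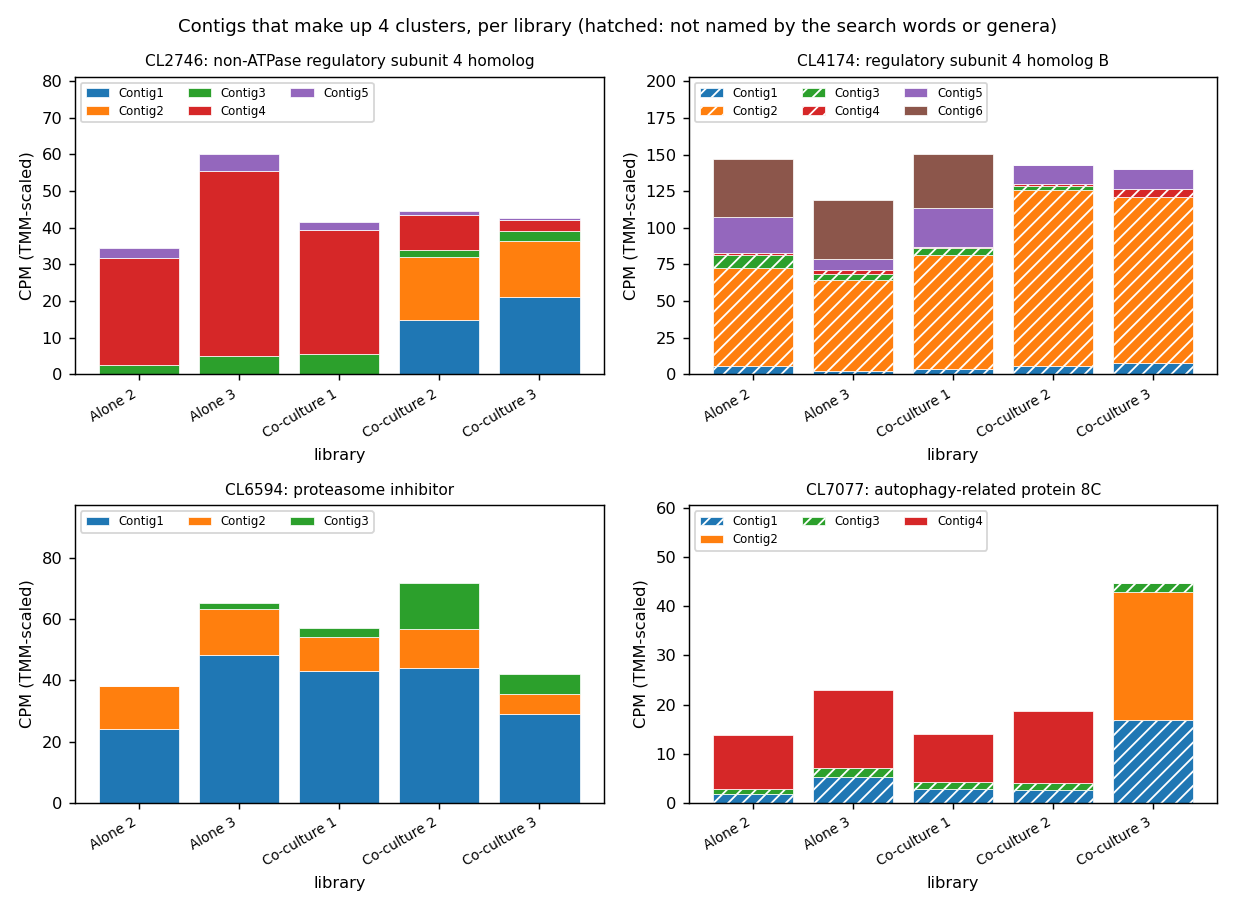
CPM (TMM-scaled) of each contig, stacked per library, in 4 clusters; hatched contigs belong to the cluster but were not members. In CL2746 the bars reach 34.4 to 60.1 CPM and in CL4174 119 to 150 CPM, with no gap between the groups. The largest contig of CL2746 differs in co-culture 2 and 3, CL4174 lacks Contig6 there but keeps its largest contig, and CL7077 differs in co-culture 3.

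With co-culture 1 left out, the count of members with an unadjusted edgeR p under 0.05 rose from 6 to 17 of 180 tested, 8 higher and 9 lower, or 9.44% of members against about 10% of all unigenes. Of the 17, 8 were contigs that had no counts in some libraries. The largest fitted changes included contigs of CL4174, CL2746, CL26 and CL10278, whose cluster sums over all libraries changed by 0.13, -0.13, -0.20 and 0.38. They also included the lone unigene Unigene60196_zju (ATG101), at -9.66 without co-culture 1 and -3.10 over all libraries. None of the 17 passed at an adjusted p of 0.05.

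The authors' deposited table compares pooled counts, with no replicate spread, and its plant alone pool includes reads not analysed here. In the authors' deposited table the log2 ratio, with co-culture as numerator, was 1.37 for CL13334.Contig2_zju (PA200), 1.38 for Unigene5123_zju (ATG3) and 0.67 for CL11315.Contig2_zju (ATG11). For CL5716.Contig3_zju (assembly chaperone 2) the authors' deposited table gave -1.86, and for Unigene40559_zju (ATG8) -0.68. All 5 had the same sign as the values from the libraries. The pools also hold the reads of the libraries analysed here, so the shared sign is not an independent check.

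Genes around both routes were taken from lists of product words and described by counts, to be read against 2.75% higher and 4.45% lower among all unigenes at an unadjusted edgeR p under 0.05. Of 28 tested unigenes for ubiquitin, its activating enzyme and the shuttle proteins that bring substrates to the proteasome, 1 (3.57%) was higher and 0 lower at an unadjusted edgeR p under 0.05, with a median log2 fold change of 0.36. The higher one was CL14117.Contig1_zju, a ubiquitin-activating enzyme E1, with 0.48 and 1.08 CPM in plant alone and 3.23, 4.41 and 2.65 in co-culture (2.13 ± 0.67, edgeR adjusted p = 0.628). Every co-culture library was above plant alone for this low contig. Of 33 unigenes of the COP9 signalosome, a complex related to the 19S lid that regulates ubiquitin ligases, 2 (6.06%) were higher and 1 (3.03%) lower (median -0.08). CL262.Contig1_zju, its subunit 4, held 0.67 and 0.58 CPM, then 1.87, 4.13 and 7.36, while its cluster changed by 0.18. The lower one, CL4097.Contig1_zju of subunit 2, held 23.6 and 20.7 CPM, then 11.5, 9.83 and 5.81, while its cluster changed by -0.12.

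Of 21 unigenes of autophagy regulators and receptors, 1 (4.76%) was higher and 1 (4.76%) lower (median 0.30), against 2.75% and 4.45% of all unigenes. CL1056.Contig4_zju, a partner of the TOR kinase that represses autophagy, held 1.59 and 1.57 CPM in plant alone and 3.87, 3.84 and 6.86 in co-culture (1.64 ± 0.54, edgeR adjusted p = 0.628). Its cluster changed by 0.29. Of 23 unigenes of vacuolar processing enzymes and metacaspases, proteases of the vacuole and of cell death, 2 (8.70%) were higher and 2 (8.70%) lower (median -0.43, the lowest of the lists). CL330.Contig5_zju, a vacuolar-processing enzyme, held 0.19 and 0 CPM, then 2.90, 7.71 and 1.30, but its cluster changed by -0.56. Unigenes of both routes with other product wording, added after seeing the data, held 0 with an unadjusted p under 0.05 among 8 of the proteasome (median 0.16) and 30 of autophagy (median -0.07).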

How the data were processed

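The labels' protocols name a BGISEQ-500 sequencer. The submitters' processing notes name Bowtie2, RSEM and DESeq2, with no versions; the assembler and annotation settings are not given in the sources used here. Per the file headers, the deposited file of each library gave, per unigene, an expected count from RSEM and an FPKM value (fragments scaled to length and library total). A deposited table of the authors' comparison gave pooled expected counts, a log2 ratio, a p-value and a q-value, and its title pointed to DEGseq. Plant alone replicate 1 was not analysed here.

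Unigenes missing from a library's file were set to 0 and expected counts were rounded. edgeR 4.0.16 (R 4.3.3) was run on all unigenes after filterByExpr, with TMM factors and the quasi-likelihood F test of group alone, with no block, and Benjamini-Hochberg adjustment over all unigenes at 0.05. The common biological coefficient of variation was 0.773. The SE is the log2 fold change divided by the root of F, and 95% intervals follow from it. A count of 3 stood for 0.124 to 0.172 CPM per library, and was the floor for lower bounds over a group; bounds cover counting error only. DESeq2 1.42.0 and limma 3.58.1 on log2(FPKM + 0.1) and log2(FPKM + 1) were alternatives. The code was tested on simulated data.

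Named unigenes were those with the highest FPKM in each role, those with non-overlapping groups, at least 1 CPM and the 4 smallest edgeR p in each route and direction, DESeq2 calls, and the smallest edgeR p in each list. Contigs inside the clusters and sums described were named besides, as were list unigenes lower at an unadjusted edgeR p under 0.05. The members and lists were chosen with earlier results of these data known. No sequence is printed.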

Additional observations from a re-analysis of the deposited data

How the results depend on the processing

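Limits. With 2 libraries against 3 and a wide spread, edgeR and limma called no unigene after adjustment; DESeq2 called 1294. Over the members, co-culture 1 correlated most with plant alone, and its label could not be checked. The 2 chosen words miss proteins with other names. Contigs of a cluster can share reads, and low members rest on few counts.

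Counts of members with an unadjusted p under 0.05 (5 proteasome, 1 autophagy) became 9 and 3 with DESeq2 (6.52% of members, 12.2% of all unigenes), which called 3 members at adjusted p 0.05. Autophagy had 3 with limma on log2(FPKM + 0.1) (all members 4.35%, all unigenes 9.0%), 4 with log2(FPKM + 1) (5.98% and about 10%) and 2 with hits of every species. Summing per cluster gave 1 and 0, and per protein 0 and 0; per protein the autophagy median was -0.0106 and the difference between the medians 0.00258. DESeq2 gave 1 protein sum. Leaving out each library gave 3 to 13 proteasome members, 1 to 4 autophagy members and 0 to 2 protein sums, medians of -0.0947 to 0.215 and 0.00828 to 0.311, and a difference of -0.207 to 0.0154. The proteasome median turned positive without plant alone 3 (0.215, where all unigenes had 0.127) and without co-culture 3 (0.0236), where the difference turned positive too. No member passed adjusted p 0.05 in any edgeR or limma alternative. The cause was not tested.

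The replicate block gave 9 proteasome and 3 autophagy members (6.52% of members, 6.71% of all unigenes) and 1 protein sum, assembly chaperone 4. Of the 12, 2 were shared with the fit without it. After each group's mean was subtracted from log2 CPM, same-numbered libraries correlated at 0.04 and 0.07 over 2 pairs. The deviations of the 2 plant alone libraries mirror each other, so the 2 values are not separate checks. The numbers were thus not shown to pair samples.

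Of 35 named results, 25 kept their sign. With each library left out in turn, CL4728.Contig1_zju ran from -0.493 to 0.186, Unigene1529_zju from -0.503 to 0.113, CL4596.Contig2_zju from -0.273 to 0.208 and CL4335.Contig3_zju from -0.584 to 0.0733, positive without plant alone 3. CL6594.Contig1_zju ran from -0.328, without plant alone 2, to 0.711. Summed per cluster, CL26.Contig6_zju became -0.20, CL2746.Contig1_zju and CL2746.Contig2_zju -0.13, CL1190.Contig1_zju 0.29 and CL330.Contig5_zju -0.56. DESeq2 added calls for CL262.Contig1_zju and CL330.Contig5_zju.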
